A study of Rattus norvegicus with 24 samples.

Results

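The 10 genes described here encode receptors, a ligand and coupling proteins of the parathyroid hormone (PTH) family. These are the 2 receptors Pth1r and Pth2r, the local ligand Pthlh, the scaffolds Slc9a3r1 and Slc9a3r2, the G protein alpha subunits Gnas, Gnaq and Gna11, and the arrestins Arrb1 and Arrb2. They were chosen by name, and each matched 1 of the 17811 entries of the deposited table. Expression was measured by RNA-seq in the L4-5 dorsal root ganglia (DRG), the clusters of sensory nerve cell bodies beside the spinal cord, of 24 female Sprague-Dawley rats that were 20 weeks old. The Sham-vehicle group had sham surgery and saline, the OVX-vehicle group had ovariectomy and saline, and the OVX-TPTD group had ovariectomy and teriparatide (TPTD), with 8 rats in each. Surgery was at 12 weeks of age, and saline or TPTD, the active N-terminal fragment of human PTH, was injected subcutaneously during the last 4 weeks at 30 ug/kg for TPTD, 3 times per week. TPTD is compared here only in ovariectomized rats, and the study picked the rats of each group by body weight and by their latency in a heat test, so they are not a random sample of the operated rats.

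PTH1R is a class B G protein-coupled receptor that is known for its action in bone and kidney, where it answers both to circulating PTH and to the locally made PTH-related protein. Bound receptor couples to Gs, which raises cAMP, and to Gq and G11, which activate phospholipase C and release calcium. NHERF scaffolds hold the receptor at the membrane and can favour the phospholipase C branch, and beta-arrestins bind the active receptor and carry it inside. PTH2R is a related receptor whose ligand in the nervous system is the peptide TIP39.

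Pth1r lies on rat chromosome 8 at positions 118988208 to 119007807 of build rn6 and Pth2r on chromosome 9 at 72052966 to 72157771, as the table gives them. In the same build, Gnas at 172374957 to 172434986 of chromosome 3 on the plus strand, Gnaq at 233382778 to 233622584 of chromosome 1 on the plus strand and Gna11 at 11033400 to 11047284 of chromosome 7 on the plus strand were the G protein genes. The scaffold genes were Slc9a3r1 at 103713045 to 103730145 of chromosome 10 on the plus strand and Slc9a3r2 at 14003330 to 14013844 of chromosome 10 on the minus strand, and the arrestin genes were Arrb1 at 164502452 to 164568430 of chromosome 1 on the plus strand and Arrb2 at 57040251 to 57048045 of chromosome 10 on the plus strand. The promoter windows of these 2 receptor genes are shown because the receptors stood far apart in expression. Each runs from 250 bases before to 50 bases after the start of the gene in RefSeq, build GRCr8, and the capitals mark TGACG or CGTCA, the core of the cAMP response element read on either strand. The Pth1r window is chr8:119595522-119595821 on the minus strand and the Pth2r window is chr9:74199535-74199834 on the plus strand.
Pth1r: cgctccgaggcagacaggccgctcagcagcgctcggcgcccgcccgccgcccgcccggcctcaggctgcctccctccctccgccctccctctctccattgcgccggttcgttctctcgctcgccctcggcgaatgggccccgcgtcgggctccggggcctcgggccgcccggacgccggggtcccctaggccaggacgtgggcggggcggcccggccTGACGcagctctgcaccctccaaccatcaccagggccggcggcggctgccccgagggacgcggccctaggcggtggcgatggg
Pth2r: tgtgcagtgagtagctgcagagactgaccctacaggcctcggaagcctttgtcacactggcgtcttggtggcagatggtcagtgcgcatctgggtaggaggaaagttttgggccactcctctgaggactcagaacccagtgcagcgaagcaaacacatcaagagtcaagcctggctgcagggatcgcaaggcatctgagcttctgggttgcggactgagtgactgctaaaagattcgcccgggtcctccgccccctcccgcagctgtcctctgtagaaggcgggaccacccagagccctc
The Pth1r window was 78.7% G or C with 41 CG pairs, and the Pth2r window was 59.0% G or C with 11 CG pairs, beside a median of 51.7% and 7 CG pairs over all 33469 windows. The core occurred 1 time in the Pth1r window, at base 218 counted from the 5′ end, and not in the Pth2r window, and 21.2% of all windows held it. The GC box GGGCGG, read on both strands, occurred 7 times in the Pth1r window and 1 time in the Pth2r window, and 33.1% of all windows held it. RefSeq windows were matched for 7 of the 10 genes. Among the others matched, the Gnaq window and 1 of the 3 Gnas windows held 1 core each, and no window of the 7 genes held the full element TGACGTCA, which 1.83% of all windows held. These are letter matches only.

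Sequencing depth ran from 15573490 to 19069926 expected counts per rat and was somewhat higher in OVX-TPTD. The medians were 17291323 in Sham-vehicle, 16916533 in OVX-vehicle and 18374928 in OVX-TPTD. The shallowest OVX-TPTD library, at 17506140, lay above the medians of both other groups. The libraries carried the RNA of sensory ganglia. The 10 neuronal markers summed to between 8782 and 10135 FPKM (fragments scaled to transcript length and to the mapped reads of the library) in every rat, led by Uchl1 and Tubb3, and myelin and satellite glial markers were also high. The 9 bone markers summed to between 12.6 and 17.8 FPKM, most of it Alpl, for an alkaline phosphatase also made outside bone, at 10.3 FPKM on average. The osteoblast and osteocyte genes Bglap and Ibsp averaged 1.48 and 1.37 FPKM, and Sost at 0.00657 FPKM, Sp7 at 0.0934 FPKM and Dmp1 at 0.140 FPKM were near 0. The title of OVX-vehicle replicate 1 puts that rat among the OVX rats while its surgery label reads Sham. The title was followed, and the comparisons were repeated without it and with it among the Sham-vehicle rats.

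The 10 genes spanned from 172 FPKM to under 0.1 FPKM, and Pth1r stood below every gene for the proteins its receptor couples to. The mean levels over the 24 rats, in FPKM with the SD, were 172 ± 12.5 for Gnas, 85.6 ± 7.78 for Gnaq, 52.0 ± 4.78 for Slc9a3r1, 46.2 ± 2.44 for Slc9a3r2 and 39.5 ± 3.66 for Arrb1. They were 33.0 ± 1.86 for Arrb2, 15.97 ± 1.71 for Gna11, 8.18 ± 1.45 for Pth1r, 0.348 ± 0.183 for Pthlh and 0.0451 ± 0.0375 for Pth2r. The ranges over the 24 rats did not overlap between Gnas and Gnaq, Gnaq and Slc9a3r1, Arrb2 and Gna11, Gna11 and Pth1r, or Pth1r and Pthlh. They overlapped for the neighbours Slc9a3r1 and Slc9a3r2, Slc9a3r2 and Arrb1, Arrb1 and Arrb2, and Pthlh and Pth2r, although within a rat the first of each pair was higher in 21, 24, 23 and 22 of the 24 rats. FPKM is scaled to the transcript length that the table holds. That length ran from 665 bases for Pthlh to 5243 bases for Gnas, a locus of 5 overlapping transcripts counted as 1 entry, so the level of Gnas depends on how those transcripts were merged.

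**Figure D1:**
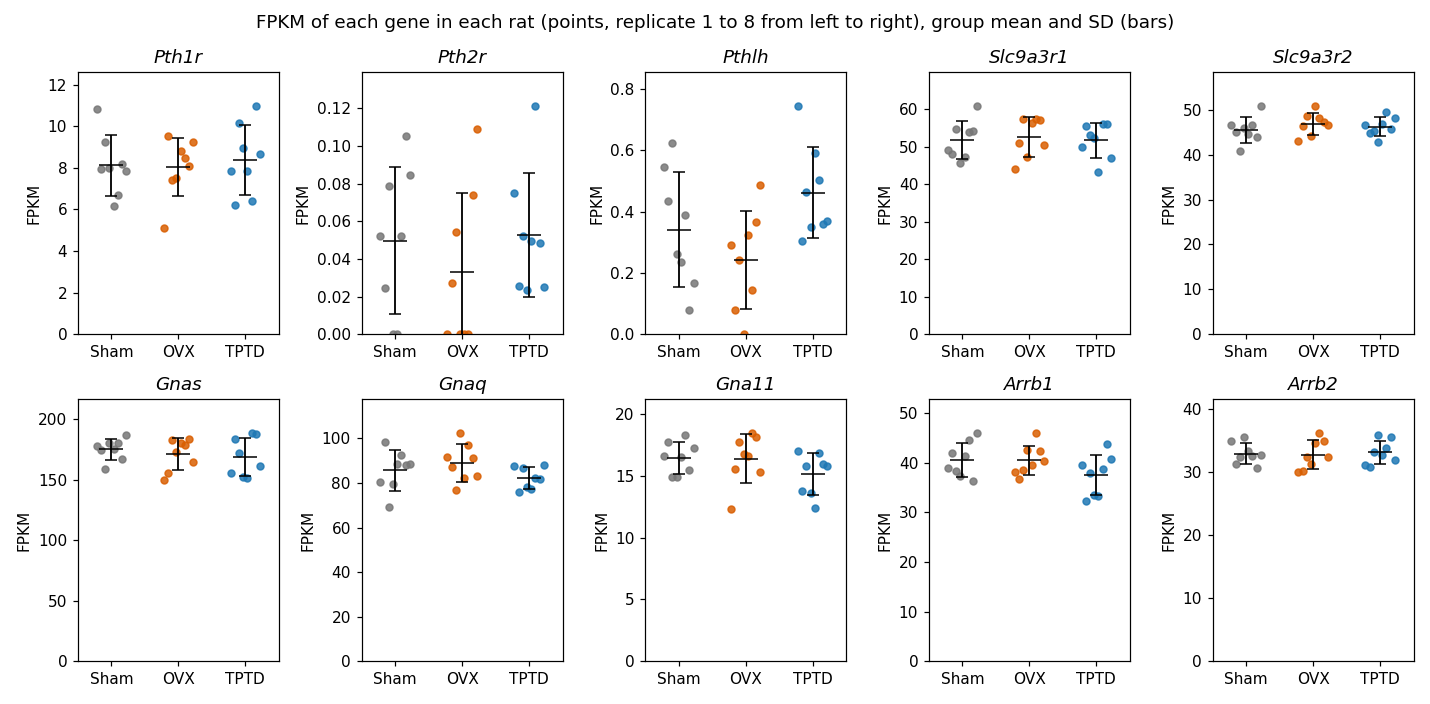
FPKM (vertical axes, each from 0) of the 10 genes in each of the 24 rats by group, with each point a rat, the horizontal bar the group mean and the whiskers the SD over 8 rats (the axis ends at 0, which cuts the lower whisker of Pth2r in OVX-vehicle). The 3 groups overlapped for every gene, and Pth1r ranged from 5.10 to 10.98 FPKM.

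No gene of the 10 was called different between any pair of groups. Pthlh and Pth2r had too few counts for the main test, and of the other 8, the quasi-likelihood F test of edgeR, with p values adjusted over 12645 genes by the Benjamini-Hochberg method, called 0 in OVX-vehicle against Sham-vehicle, where 0.00791% of all genes (1 gene) were called. It called 0 in OVX-TPTD against OVX-vehicle, where 0.0% of all genes were called, and 0 in OVX-TPTD against Sham-vehicle, where 0.0316% of all genes were called. Over the 3 groups at once it called 0 of the 8, again beside 0.0316% of all genes. With so few calls in the whole table, a count of 0 says little of these genes in particular. Before adjustment, 0 of the 8 had an edgeR p under 0.05 in each comparison, beside 4.82%, 3.65% and 15.1% of all genes in the order above. An exact permutation test of log2(FPKM + 0.1), two-sided over 12870 divisions of the 16 rats, gave 0 of the 8 a p under 0.05 in OVX-vehicle against Sham-vehicle (5.1% of 13024 entries) and in OVX-TPTD against OVX-vehicle (3.82%). DESeq2 also called 0 of the 8. In bulk tissue, fewer cells of a type and less RNA per cell cannot be told apart.

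The intervals show how large a difference the data leave room for. For OVX-vehicle against Sham-vehicle the 95% intervals of the log2 difference in edgeR ran at their widest from -0.29 to 0.24, for Pth1r, and at their narrowest from -0.05 to 0.12, for Slc9a3r2. For OVX-TPTD against OVX-vehicle they ran from -0.20 to 0.33 for Pth1r, which is 0.874-fold to 1.25-fold, and from -0.10 to 0.07 for Slc9a3r2. No interval of the 8 genes reached a log2 difference of 1 in either direction.

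**Figure D2:**
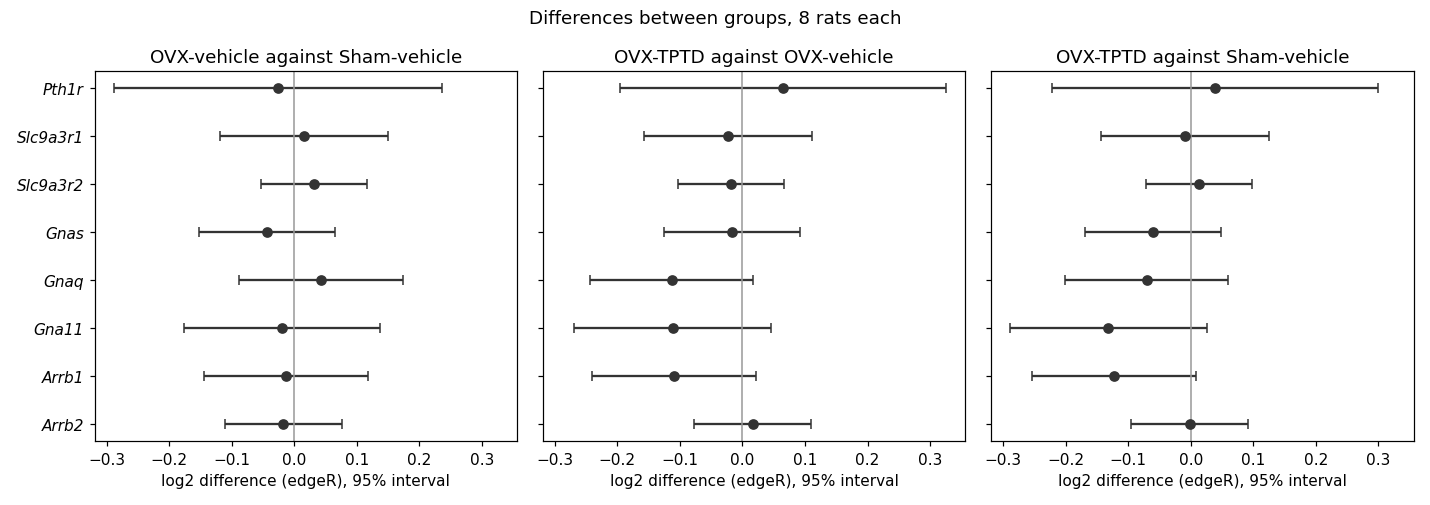
The log2 difference (horizontal axes) of the 8 genes tested in edgeR for the 3 comparisons, with each point the estimate and each bar its 95% interval, 8 rats per group. Every interval crosses 0, and those of Pth1r are the widest, from -0.20 to 0.33 in OVX-TPTD against OVX-vehicle.

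Pthlh encodes PTH-related protein, the paracrine ligand of PTH1R. It lies on chromosome 4 at 181663425 to 181674181 of rn6, on the minus strand. Its expected counts were 1 at the lowest, 4.0 at the median and 8 at the highest in Sham-vehicle, 0, 3.5 and 6 in OVX-vehicle, and 4, 5.5 and 10 in OVX-TPTD. These sum to 35, 25 and 50 counts in the 3 groups, and the gene was detected in 23 of 24 rats and always near the limit of the depth. All 8 OVX-TPTD rats were above the median of the OVX-vehicle rats, with overlap between the groups at 4 to 6 counts. The mean levels were 0.341 ± 0.189 FPKM in Sham-vehicle, 0.241 ± 0.159 FPKM in OVX-vehicle and 0.461 ± 0.148 FPKM in OVX-TPTD (SD, 8 rats each). OVX-TPTD exceeded OVX-vehicle by 0.86 (SE 0.32) in mean log2(FPKM + 0.1), with an exact permutation p of 0.0104 before adjustment and 1.0 after Benjamini-Hochberg adjustment over the 15600 entries with a read, of which 3.81% had a p under 0.05. The difference did not pass the correction. Leaving out each of the 16 rats in turn gave differences from 0.63 to 0.99, with exact permutation p values from 0.0014 to 0.0275 before adjustment. With edgeR and no filter on low counts it was 0.90 on the log2 scale (SE 0.38), with a p of 0.0242 before adjustment and an adjusted p of 0.973. OVX-vehicle against Sham-vehicle differed by -0.42 (exact permutation p = 0.293, beside 4.79% of entries under 0.05) and OVX-TPTD against Sham-vehicle by 0.44 (exact permutation p = 0.133). The counting error alone gives a CV of 40% to 56.6% at these counts. The other ligand genes were at or near 0. Pth, for the hormone itself, had 0 counts in all 24 rats, which allows up to 0.193 CPM (counts scaled to library size) in the shallowest library, taking 3 counts as the limit; this covers counting error only, and Pth2, for TIP39, averaged 0.00449 FPKM, with reads in Sham-vehicle alone.

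**Figure D3:**
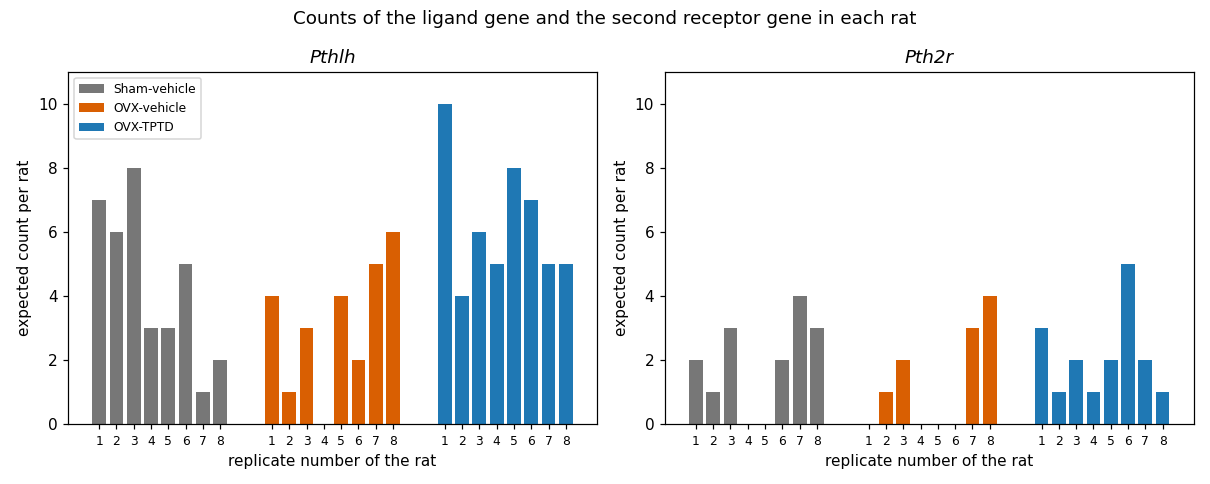
Expected counts (vertical axes) of Pthlh and Pth2r in each rat, with each bar 1 rat, numbered by its replicate number, and the colour its group; missing bars are counts of 0. Pthlh summed to 25 counts in OVX-vehicle and 50 in OVX-TPTD, and Pth2r to 10 and 17. The counts are not scaled to depth, which had its highest median in OVX-TPTD.

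Pth1r was the better expressed of the 2 receptor genes. Its lowest, median and highest levels were 6.15, 7.98 and 10.8 FPKM in Sham-vehicle, 5.10, 8.28 and 9.56 FPKM in OVX-vehicle, and 6.19, 8.27 and 10.98 FPKM in OVX-TPTD, on 194 to 423 counts per rat. The 3 groups overlapped over nearly their whole ranges. The lowest of the 24 rats was OVX-vehicle replicate 1, the rat with conflicting labels, which was also the lowest of its group for Gnas, Gna11, Slc9a3r1, Slc9a3r2 and Arrb2. OVX-vehicle differed from Sham-vehicle by -0.03 (SE 0.13, adjusted p = 0.973, edgeR), OVX-TPTD from OVX-vehicle by 0.07 (SE 0.13, adjusted p = 0.995, edgeR) and OVX-TPTD from Sham-vehicle by 0.04 (SE 0.13, adjusted p = 0.898, edgeR). Counting OVX-vehicle replicate 1 as a Sham-vehicle rat turned the first of these to 0.11 and the second to -0.01. At 8.18 FPKM, Pth1r ranked 7021st of the 15600 entries with a read, above 55.0% of them.

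Pth2r was at the limit of the depth. It had 15 counts over the Sham-vehicle rats, 10 over the OVX-vehicle rats and 17 over the OVX-TPTD rats, with 0 counts in 2, 4 and 0 rats. Scaled to the depth of each group, the sums were 0.109, 0.0715 and 0.116 CPM. No rat had more than 5 counts, and the groups overlapped, although all 8 OVX-TPTD rats were above the low OVX-vehicle median. OVX-TPTD against OVX-vehicle differed by 0.23 in mean log2(FPKM + 0.1) (exact permutation p = 0.215), and the other comparisons by -0.18 (exact permutation p = 0.380) and 0.05 (exact permutation p = 0.768). Within the 24 rats Pth1r exceeded Pth2r in every rat, and the lowest Pth1r count, 194, lay far above the highest Pth2r count.

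Among the G proteins, Gnas encodes the alpha subunit of Gs and Gnaq and Gna11 the alpha subunits of Gq and G11. Gnas ranged from 150 to 188 FPKM over all rats, with medians of 176, 176 and 167 FPKM in Sham-vehicle, OVX-vehicle and OVX-TPTD. It averaged 2.02 ± 0.226 times Gnaq within a rat (SD, n = 24) and 21.7 ± 4.44 times Pth1r. Gnas differed by -0.04 (SE 0.05) between OVX-vehicle and Sham-vehicle and by -0.02 (SE 0.05) between OVX-TPTD and OVX-vehicle on the log2 scale of edgeR, both within the spread between rats.

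Gnaq had its lowest, median and highest levels at 69.1, 88.3 and 98.1 FPKM in Sham-vehicle, 76.6, 89.3 and 102 FPKM in OVX-vehicle, and 76.1, 81.9 and 88.1 FPKM in OVX-TPTD. All 8 OVX-TPTD rats lay below the median of the OVX-vehicle rats and below that of the Sham-vehicle rats, but the ranges of the 3 groups overlapped. OVX-TPTD differed from OVX-vehicle by -0.11 on the log2 scale in edgeR (SE 0.06, p = 0.0865, adjusted p = 0.995), and the exact permutation p was 0.0754 (adjusted p = 0.998). Neither passed. Leaving out OVX-vehicle replicate 3, the lowest rat of its group, gave an exact permutation p of 0.0193 before adjustment, and it was the single rat of 16 whose removal brought that p under 0.05. Gna11 was at 12.3 to 18.4 FPKM, and Gnaq averaged 5.40 ± 0.613 times Gna11 within a rat (SD, n = 24). Gna11 differed by -0.11 (SE 0.08) in OVX-TPTD against OVX-vehicle and by -0.13 (SE 0.08) in OVX-TPTD against Sham-vehicle, with adjusted p values of 0.995 and 0.389 in edgeR. With 1 surrogate variable, an unlabelled factor estimated from all genes with sva, in the fit, the former was -0.04. The factor was not independent of the groups, being mostly below 0 in Sham-vehicle and mostly above 0 in OVX-TPTD. Fits that hold it can therefore take up part of a group difference. Without OVX-vehicle replicate 1, at 12.3 FPKM the lowest of all 24 rats, the exact permutation p of Gna11 in OVX-TPTD against OVX-vehicle went from 0.228 to 0.0390 before adjustment.

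Neither scaffold gene stood apart in any group. Slc9a3r1 encodes NHERF1, and its levels were 45.6, 51.4 and 60.8 FPKM at the lowest, median and highest in Sham-vehicle, 44.0, 53.6 and 57.4 FPKM in OVX-vehicle, and 43.3, 52.8 and 56.1 FPKM in OVX-TPTD. Slc9a3r2 encodes NHERF2, and its levels were 40.8, 45.5 and 50.8 FPKM, 43.0, 46.8 and 50.8 FPKM, and 42.8, 46.2 and 49.5 FPKM in the same order. All 3 groups overlapped for both genes. The log2 differences of Slc9a3r1 and Slc9a3r2 in edgeR lay between -0.02 and 0.03 over the 3 comparisons, with SEs of 0.07 and 0.04. The scaffolds were present at nearly equal levels, with a ratio of Slc9a3r1 to Slc9a3r2 of 1.13 ± 0.0988 within a rat (SD, n = 24), and Slc9a3r1 was at 6.54 ± 1.26 times Pth1r.

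The arrestin genes Arrb1 and Arrb2, for beta-arrestin 1 and 2, were also both well expressed. Arrb1 had its lowest, median and highest levels at 36.3, 40.2 and 45.9 FPKM in Sham-vehicle, 36.7, 39.99 and 45.9 FPKM in OVX-vehicle, and 32.3, 38.4 and 43.8 FPKM in OVX-TPTD. In OVX-TPTD, 6 of 8 rats lay below the OVX-vehicle median. Arrb1 differed by -0.12 (SE 0.06, adjusted p = 0.349, edgeR) in OVX-TPTD against Sham-vehicle, the smallest edgeR p of the 8 genes in any comparison, and by -0.11 (SE 0.06, adjusted p = 0.995, edgeR) in OVX-TPTD against OVX-vehicle. With 1 surrogate variable the latter was -0.06. Its exact permutation p was 0.107, and it was 0.0365 without OVX-TPTD replicate 7, the highest rat of its group. Arrb2 was between 30.1 and 36.2 FPKM in all rats, with log2 differences between -0.02 and 0.02. The ratio of Arrb1 to Arrb2 within a rat averaged 1.23 in Sham-vehicle, 1.24 in OVX-vehicle and 1.13 in OVX-TPTD, with SDs of 0.126, 0.0634 and 0.123 (8 rats each), and the 3 groups overlapped.

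Pth1r varied more between rats of a group than the 7 other genes tested, although in OVX-vehicle this rested on 1 rat. Its CV was 17.8% in Sham-vehicle, 17.5% in OVX-vehicle and 19.9% in OVX-TPTD, where counting alone gives 5.64% to 5.93%. The 7 other genes had CVs from 4.47% to 12.1%. Without OVX-vehicle replicate 1, the rat with conflicting labels, the OVX-vehicle CV of Pth1r was 9.72%, below the 10.08% of Gnaq in the same 7 rats. Leaving out any 1 rat gave 13.2% to 19.3% for Pth1r in Sham-vehicle and 17.6% to 21.6% in OVX-TPTD. In edgeR the biological CV of Pth1r was 17.01%, against 11.2% on the trend of all genes at its expression, and those of the 7 others were 5.78% to 9.75%, against 8.58% to 10.9% on the trend. Without OVX-vehicle replicate 1 the biological CV of Pth1r was 15.1%, against 11.02% on the trend. The CV of Pthlh was 55.3%, 66.0% and 32.2% in Sham-vehicle, OVX-vehicle and OVX-TPTD, against 47.8%, 56.6% and 40% from counting alone. That of Pth2r was 78.9%, 127% and 62.5%, against 73.0%, 89.4% and 68.6%. For both genes the CV was above that of counting alone in Sham-vehicle and OVX-vehicle and below it in OVX-TPTD.

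**Figure D4:**
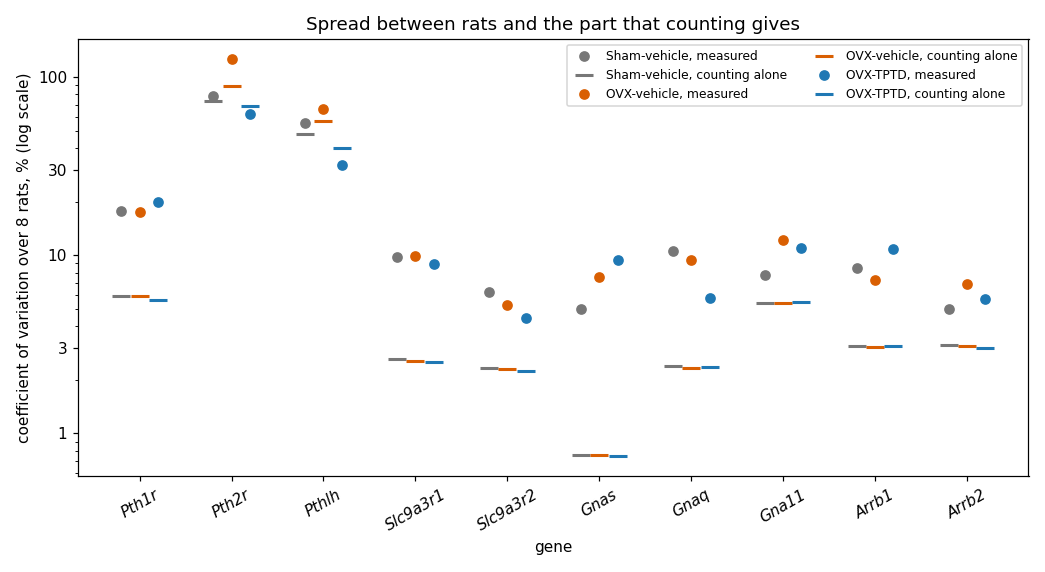
The coefficient of variation over 8 rats (vertical axis, percent, log scale) of each gene in each group, with points for the measured value and dashes for the value that counting alone gives. Pth1r, at 17.5% to 19.9%, lay well above its dashes, while those of Pthlh and Pth2r lay on either side of theirs, at up to 127% against 89.4% for Pth2r in OVX-vehicle.

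Several of the coupling genes varied together from rat to rat, and Pth1r was in none of the pairs that passed. Correlations were computed over 24 rats on log2 CPM after removing group means, for 45 pairs in all. Of these, 6 passed Benjamini-Hochberg adjustment of the permutation p of Pearson r, each positive. By the permutation test of Spearman rho, the pairs of Gnas with Gna11 and with Slc9a3r2 did not pass (adjusted p = 0.0592 for each). The genes of the 6 pairs also varied with many others of the table. Of 12644 genes, 2276 had a Pearson r beyond 0.6 in either direction with Gnas, 1787 with Gna11 and 1118 with Arrb1. The counts were 942 for Slc9a3r1, 711 for Slc9a3r2 and 363 for Gnaq. Whether the pairs varied together more than other pairs of genes was not tested. Gna11 and Arrb1 had a Pearson r of 0.72 (permutation p = 0.00017, adjusted p = 0.00765) and a Spearman rho of 0.79 (permutation p = 5e-05, adjusted p = 0.00225). The r was 0.78 without the 2 rats farthest from the median, and 0.85, 0.54 and 0.84 within Sham-vehicle, OVX-vehicle and OVX-TPTD. Gnaq and Arrb1 had r = 0.60 and rho = 0.67 (permutation p = 0.0013 and 0.00059, adjusted p = 0.0274 and 0.00885), with 0.62 without the 2 farthest rats and 0.59, 0.59 and 0.79 within the groups. These 2 pairs hold the 3 genes with a log2 difference of -0.11 between OVX-TPTD and OVX-vehicle. Gnas and Gna11 had r = 0.65 and rho = 0.55 (permutation p = 0.00183 and 0.0105, adjusted p = 0.0274 and 0.0592), with 0.48 without the 2 farthest rats and 0.67, 0.89 and 0.44 within the groups.

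The scaffold genes also varied with the G protein genes. Slc9a3r2 and Gna11 had r = 0.57 and rho = 0.62 (permutation p = 0.00451 and 0.00271, adjusted p = 0.0338 and 0.0305), with 0.57 without the 2 farthest rats and 0.63, 0.61 and 0.53 within the groups. Slc9a3r2 and Gnas had r = 0.56 and rho = 0.54 (permutation p = 0.00356 and 0.00953, adjusted p = 0.032 and 0.0592), with 0.48 without the 2 farthest rats and 0.94, 0.67 and 0.27 within the groups. Slc9a3r1 and Gnas had r = 0.60 and rho = 0.70 (permutation p = 0.00331 and 0.00046, adjusted p = 0.032 and 0.00885), with 0.43 without the 2 farthest rats. Within the groups the last pair had r = -0.08 in Sham-vehicle and 0.82 and 0.81 in the OVX groups, and the difference between the groups was not tested.

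Markers of the cell types of the ganglion correlated by Pearson r with 3 of these genes, Gnas, Gna11 and Slc9a3r2. Of 100 correlations of the 10 genes with the mean of 10 marker lists, 4 passed by the adjusted permutation p of Pearson r. By that of Spearman rho, those of Slc9a3r2 passed, and those of Gnas and Gna11 did not. The neuronal list (10 of 10 genes used) correlated positively with Gnas (r = 0.75, rho = 0.65, permutation p = 0.00013 and 0.00286, adjusted p = 0.0065 and 0.0658), Gna11 (r = 0.67, rho = 0.62, permutation p = 0.00036 and 0.00261, adjusted p = 0.012 and 0.0658) and Slc9a3r2 (r = 0.66, rho = 0.69, permutation p = 0.00159 and 0.00058, adjusted p = 0.0397 and 0.029). Without the 2 farthest rats these r were 0.67, 0.54 and 0.61, and within the groups they ran from 0.69 to 0.86, from 0.58 to 0.77 and from 0.37 to 0.87. The satellite glial list (8 of 8 genes used) correlated negatively with Slc9a3r2 (r = -0.72, rho = -0.70, permutation p = 0.0001 and 0.00053, adjusted p = 0.0065 and 0.029), with -0.68 without the 2 farthest rats and -0.90, -0.81 and -0.37 within Sham-vehicle, OVX-vehicle and OVX-TPTD. The neuronal sum differed little by group, at 8782 to 9995 FPKM in Sham-vehicle, 8945 to 10135 FPKM in OVX-vehicle and 9026 to 10030 FPKM in OVX-TPTD. The Schwann cell sum was at 3163 to 4107, 3243 to 4879 and 3145 to 4095 FPKM in the same order, and the satellite glial sum at 2236 to 2610, 2356 to 2827 and 2389 to 3042 FPKM. In edgeR, 9 of 9 Schwann cell markers had a higher value in OVX-vehicle than in Sham-vehicle (median 0.14) and 9 of 9 a lower value in OVX-TPTD than in OVX-vehicle (median -0.15), with 0 passing adjustment. Over all genes, 50.9% and 49.0% had a higher value in these 2 comparisons. Endothelial markers had 7 of 8 and then 1 of 8 higher, fibroblast markers 1 of 8 and then 7 of 8, and neuronal markers 3 of 10 and then 4 of 10. Both comparisons hold the same OVX-vehicle rats, so opposite signs in the 2 are not separate findings. Markers of 1 cell type may also vary together. In OVX-TPTD against Sham-vehicle, 4 of 9 Schwann cell markers (median -0.01), 4 of 8 endothelial, 4 of 8 fibroblast and 4 of 10 neuronal markers had a higher value. Of the 8 macrophage markers, 8 had a higher value in OVX-TPTD than in OVX-vehicle (median 0.15), and of the 6 skeletal muscle markers tested, 6 had a lower value (median -0.33), again with 0 passing. The part of cell make-up in the differences between groups was not tested.

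**Figure D5:**
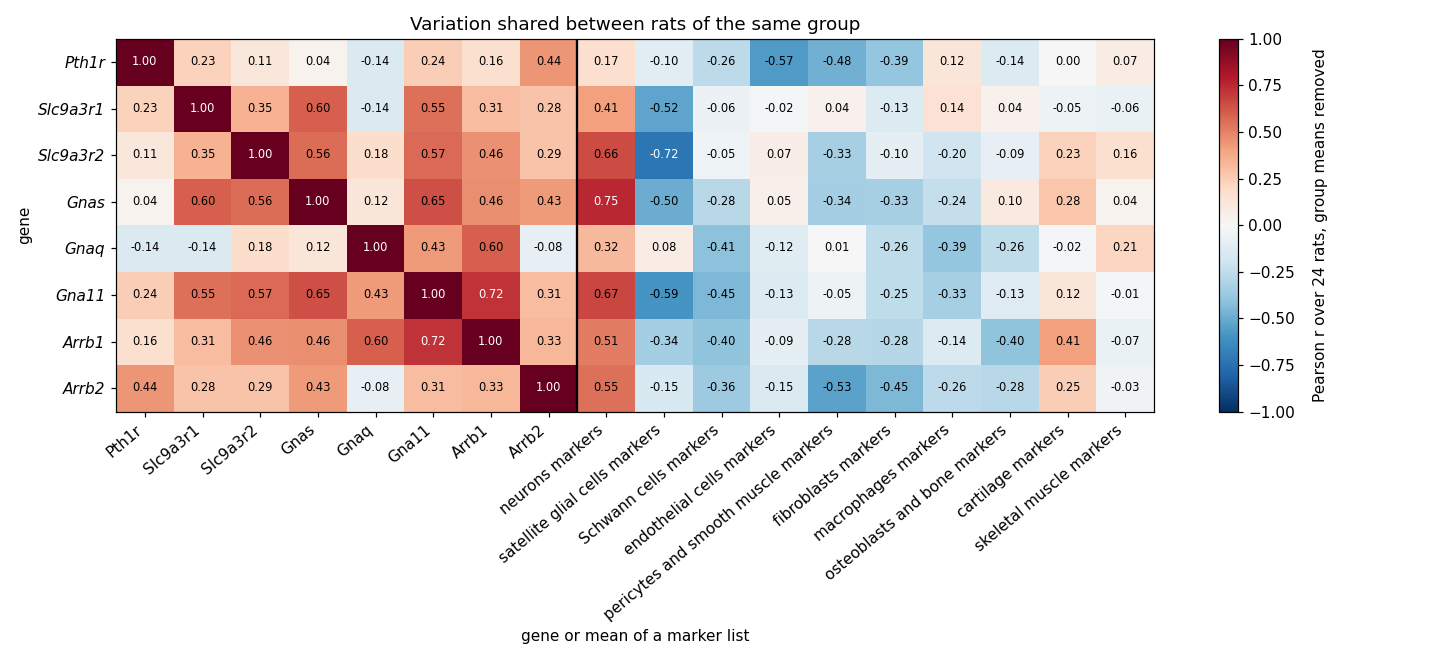
Pearson r over 24 rats, after removing group means, between the 8 genes tested in edgeR (rows) and the same genes or the means of marker lists (columns), with red for positive and blue for negative values and the value in each cell. Gna11 with Arrb1 (0.72) and Gnas with neuronal markers (0.75) are the deepest red off the diagonal, and the row of Pth1r is pale for the other 7 genes, with 0.44 at most.

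Pth1r passed with no other gene of the 10 and no marker list. Its strongest relation to a list was with endothelial markers (r = -0.57, rho = -0.59, permutation p = 0.00449 and 0.004, adjusted p = 0.0748 and 0.0667), with -0.53 without the 2 farthest rats and -0.64, -0.48 and -0.62 within the groups, and it did not pass. Its r with the neuronal list was 0.17. Few genes followed it: 40 of 12644 had an r above 0.6 or below -0.6 with Pth1r, against 175 for Arrb2, 363 for Gnaq, 711 for Slc9a3r2, 942 for Slc9a3r1, 1118 for Arrb1, 1787 for Gna11 and 2276 for Gnas. The 2 genes of low counts had fewer, with 24 for Pthlh and 9 for Pth2r. How many chance alone would give was not tested. The 5 genes most like it, given with no test since they were picked for a high r over the 24 rats, were Chrna4 (r = 0.72), a neuronal nicotinic receptor subunit, Fut7 (0.68), a fucosyltransferase, Habp4 (0.68), Pde6b (0.68), a cGMP phosphodiesterase known from rods, and Tmem178a (0.68). Without the 2 farthest rats these r ran from 0.48 to 0.59. Of the 40 genes, 18 had an r above 0.6 and 22 an r below -0.6. The strongest relation of any gene to Pth1r was negative, with an r of -0.78, and of -0.67 without the 2 farthest rats. Chrna4 averaged 0.305 FPKM and Pde6b 0.601 FPKM, so their counts were low. For Pthlh the 5 highest were Tmem81 (0.68), Wisp1 (0.67), LOC501038 (0.66), RT1-CE11 (0.65) and Amz1 (0.65), which for a gene of 0 to 10 counts is a weak guide. Without the 2 farthest rats they ran from 0.11, for LOC501038, to 0.61, for RT1-CE11.

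The wider pathway was examined through 11 lists of genes, of which 151 genes were tested and 0 were called in each comparison. Before adjustment, 5 of the 151 (3.31%) had an edgeR p under 0.05 in OVX-vehicle against Sham-vehicle, 3 (1.99%) in OVX-TPTD against OVX-vehicle and 15 (9.93%) in OVX-TPTD against Sham-vehicle, each a smaller share than over all genes. Of the 12 class B receptor genes, Pth1r was the highest at 8.18 FPKM, followed by Calcrl, the receptor subunit for CGRP and adrenomedullin, at 5.73 FPKM and Vipr2, a VIP receptor, at 2.29 FPKM. Of the 6 class B genes tested, 0 passed in either direction, and those with the smallest p after ovariectomy were Crhr2, a corticotropin-releasing hormone receptor, at 0.64 (SE 0.23, adjusted p = 0.864, edgeR) and Calcrl at 0.29 (SE 0.12, adjusted p = 0.864, edgeR). Calcrl was at 5.04 ± 1.14 FPKM in Sham-vehicle, 6.20 ± 1.05 FPKM in OVX-vehicle and 5.94 ± 0.669 FPKM in OVX-TPTD (SD).

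The branches downstream of the receptor gave no call either. Of 13 G protein alpha genes, 0 passed. In OVX-TPTD against OVX-vehicle, 2 had a higher value and the rest a lower one, beside 49.0% of all genes higher. The median was -0.05, where that of all genes tested was close to 0. In OVX-vehicle against Sham-vehicle, 5 of the 13 had a higher value, with a median of -0.03, beside 50.9% of all genes higher. Gnas was the most abundant of the 13, followed by Gnao1 at 152 FPKM and Gnai2 at 144 FPKM, and the single one below Gna11 was Gna15 at 0.878 FPKM. Of 11 arrestin and receptor kinase genes, 0 passed, Arrb1 having the smallest p, and the kinase gene Adrbk1 was at 39.1 FPKM. Of 27 genes of the PKA and cAMP branch, 0 passed, and 11 had a higher value in OVX-TPTD than in OVX-vehicle, with a median of -0.01. Pde4d, a phosphodiesterase that breaks down cAMP, was at 5.30 ± 0.545 FPKM in Sham-vehicle, 5.33 ± 0.287 FPKM in OVX-vehicle and 4.62 ± 0.399 FPKM in OVX-TPTD (SD). Its log2 difference was -0.21 in OVX-TPTD against OVX-vehicle (SE 0.06, adjusted p = 0.995, edgeR).

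Among 29 genes of the phospholipase C and calcium branch, 0 passed. In OVX-TPTD against OVX-vehicle, 7 had a higher value and the rest a lower one, with a median of -0.04. In OVX-vehicle against Sham-vehicle, 10 of the 29 had a higher value, also with a median of -0.04. Over all genes, 49.0% and 50.9% had a higher value in these 2 comparisons. The smallest p after ovariectomy was that of Nfatc2, a calcium-regulated transcription factor, at -0.46 (SE 0.15, adjusted p = 0.806, edgeR). Of 19 genes that cAMP is known to induce, 0 passed, and 10 had a higher value in OVX-TPTD than in OVX-vehicle, with a median of 0.02. The immediate early gene Nr4a1 was at -0.19 in that comparison (SE 0.08, adjusted p = 0.995, edgeR). Of 6 tested genes that PTH acts on in bone, 0 passed, and 4 had a higher value in OVX-TPTD than in OVX-vehicle, with a median of 0.04. In OVX-vehicle against Sham-vehicle, 2 of the 6 had a higher value. Mmp13, a collagenase, had 2.002 ± 1.81 FPKM in OVX-vehicle and 0.605 ± 0.108 FPKM in OVX-TPTD (SD) with a log2 difference of -1.71 (SE 0.60, adjusted p = 0.995, edgeR), and Tnfrsf11b, for the decoy receptor osteoprotegerin, was at -0.50 in OVX-vehicle against Sham-vehicle (SE 0.18, adjusted p = 0.864, edgeR). The remaining lists, of membrane partners (15 tested), G protein beta and gamma subunits (12 tested) and RGS proteins (17 tested), had medians between -0.01 and 0.06 in OVX-vehicle against Sham-vehicle and in OVX-TPTD against OVX-vehicle, with 0 passing in either direction. Their genes with the smallest p in OVX-TPTD against OVX-vehicle were the retromer subunit gene Vps26a at 0.07, the G protein gamma gene Gng10 at 0.09 and Rgs19 at 0.17.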

How the data were processed

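RNA-seq of L4-5 DRG was analysed from 1 table of 24 rats, grouped by title. Per the labels and the study's methods, the authors made stranded libraries of polyadenylated RNA, aligned reads to rn6 with TopHat2 (version 2.0.14, credited to the submitters' processing notes) and quantified genes in a commercial package. The annotation release and any use of strand in counting are not given in the sources used here. They deposited expected counts (86.4% whole within 0.001) and FPKM, normalized to transcript length and mapped reads. Here, expected counts were rounded, filtered with filterByExpr and tested in edgeR 4.0.16 (R 4.3.3) with TMM factors, all 3 groups in 1 fit, and Benjamini-Hochberg adjustment at 0.05. FPKM above 0 in all rats were compared by exact permutation. Correlations used 100000 permutations within groups. Scripts were tested on simulated data. The 10 genes and the lists were chosen with earlier results of these data known; genes named beside them are among the 2 with the smallest p of each list in OVX-vehicle against Sham-vehicle or OVX-TPTD against OVX-vehicle, the most or least abundant of a list or, for Pth1r and Pthlh, the 5 with the highest r. Alternatives used DESeq2 1.42.0, limma 3.58.1, sva 3.50.0, other filters and scales, a replicate block, and leaving out each rat; the entries with a read, the other scales for Pthlh and the CVs with a rat left out were chosen after seeing the data. The rats are separate animals; replicate libraries differed beyond sampling noise.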

Additional observations from a re-analysis of the deposited data

How the results depend on the processing

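None of the 8 genes tested was called in any comparison under any alternative run in edgeR, DESeq2 or limma, and their smallest adjusted p was 0.153, for Arrb1 in OVX-TPTD against Sham-vehicle with 1 rat left out. Pthlh and Pth2r were fitted only in edgeR with no filter, where neither was called (adjusted p 0.586 to 0.985). The signs of small differences were less stable: 63 of 624 alternative values, in 17 of 24 gene comparisons, changed sign. The differences of Gnaq, Gna11 and Arrb1 in OVX-TPTD against OVX-vehicle kept their sign in each alternative run, but not their size. From -0.11 each, they went to -0.0901, -0.0442 and -0.0633 with 1 surrogate variable, which was not independent of the groups, and that of Gna11 to -0.159 with the relabelled rat. With 1 rat left out they ran from -0.141 to -0.0843, -0.163 to -0.0749 and -0.146 to -0.0769.

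In OVX-vehicle against Sham-vehicle, counting OVX-vehicle replicate 1 as Sham-vehicle turned Pth1r to 0.108, Gnas to 0.00257, Gna11 to 0.0695, Arrb1 to 0.00558 and Arrb2 to 0.0107, and 1 surrogate variable turned Gnas to 0.00993, Gna11 to 0.0551, Arrb1 to 0.0454 and Arrb2 to 0.00731. In OVX-TPTD against OVX-vehicle, the relabelled rat turned Pth1r to -0.00687, and the surrogate variable turned Slc9a3r1 to 0.0183, Slc9a3r2 to 0.00936 and Gnas to 0.0288. In OVX-TPTD against Sham-vehicle, Slc9a3r1 turned to 0.00296 without TMM factors, 0.00122 and 0.00119 with limma at pseudocounts of 0.1 and 1, 0.0793 with the surrogate variable and 0.0156 with the relabelled rat. Arrb2 turned to 0.0104, 0.00723 and 0.00705, 0.0474 and 0.0132 in the same order, and to 0.000554 with no filter, and the surrogate variable turned Gnas to 0.0387 and Gna11 to 0.01096. The cause was not tested.

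Leaving out 1 rat at a time gave log2 differences in edgeR on both sides of 0. In OVX-vehicle against Sham-vehicle they ran from -0.0758 to 0.0473 for Pth1r, -0.0108 to 0.0475 for Slc9a3r1, -0.0495 to 0.0295 for Gna11 and -0.0437 to 0.00943 for Arrb1. In OVX-TPTD against OVX-vehicle they ran from -0.0109 to 0.122 for Pth1r, -0.0584 to 0.00935 for Slc9a3r1, -0.0435 to 0.00432 for Gnas and -0.00362 to 0.0410 for Arrb2. In OVX-TPTD against Sham-vehicle they ran from -0.0285 to 0.109 for Pth1r, -0.0357 to 0.0247 for Slc9a3r1, -0.0088 to 0.0348 for Slc9a3r2 and -0.0229 to 0.0169 for Arrb2. In mean log2(FPKM + 0.1), Pth2r ran from -0.0329 to 0.119 in the last comparison.

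Over the whole table, genes called in OVX-vehicle against Sham-vehicle numbered 1, and 6 with DESeq2, 2 with no filter, 2 and 2 with limma, 0 with those groups alone, 0 with the surrogate variable, 0 with the relabelled rat and 0 to 2 with 1 rat left out. In OVX-TPTD against OVX-vehicle they numbered 0, and 1 with DESeq2. In OVX-TPTD against Sham-vehicle they numbered 4, and 36 with DESeq2, 9 without TMM factors, 7 with limma at a pseudocount of 1, 1 with the relabelled rat and 1 to 8 with 1 rat left out. Over the 3 groups they numbered 4, and 27 with DESeq2, 2 without TMM factors, 1 with the relabelled rat and 2 to 5 with 1 rat left out. The exact permutation test gave 1 gene of the 10, Pthlh, a p under 0.05 in OVX-TPTD against OVX-vehicle once all entries with a read were kept, and 0 to 1 of the 8 with 1 rat left out. The count of correlated pairs, by Pearson r, was 6 on log2 FPKM and 7 with no removal of group means.

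Replicate numbers did not pair the rats: same-numbered rats deviated with r from -0.0953 to 0.104, and 5 of 24 matched their own number best. With the replicate block, 0 of the 8 genes were called, and 0, 0 and 10 genes of the whole table in the comparisons above, and 3 over the 3 groups. Depth limits Pthlh and Pth2r, with at most 10 and 5 counts per rat.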
